A study of Mus musculus with 9 samples.

Results

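Glucose sensing in the pancreatic islet was examined through 8 genes that carry sugar into the beta cell, hold back or pass on its metabolism, and turn the outcome into electrical activity and calcium entry. They were chosen by name: Slc2a2, G6pc2, Gpd2, Kcnj11, Abcc8, Cacna1c, Cacna1d and Trpm5, 8 of the 56941 gene rows of the count table. RNA was sequenced from islets of male wild-type C57Bl/6J mice that began their diets at an age of 15 weeks and were fed them during 9 months. The control diet, low in fat (LFD, 3 libraries), held 10% fat, the high fat diet (HFD, 2 libraries) 60% and the ketogenic diet (KD, 4 libraries) 89.9%. The comparison asked how long feeding of a ketogenic diet changes islet transcripts. How many animals contributed to a library is not stated, so p-values measure only the spread between these libraries, which may be technical, and no batches are named, so any batch cannot be told apart from diet.

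In mouse beta cells glucose enters through GLUT2 and is phosphorylated, and its oxidation raises the ratio of ATP to ADP. ATP closes the KATP channel, the membrane depolarises, voltage-gated L-type calcium channels open, and calcium triggers the release of insulin granules. G6PC2 removes the phosphate again, and shuttles such as the one that uses GPD2 carry electrons from cytosolic NADH into mitochondria.

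Library totals ran from 15513502 to 26588390 counts, and no libraries of the same diet agreed within sampling noise (smallest chi-square per gene 24.0). All 8 genes passed the low-count filter, with 418 to 41231 counts per library, so counting alone contributed an error of at most 4.89% to any value. The libraries differed in how much exocrine RNA they held. Acinar markers (14 of 14 genes found) made up 13.2% to 31.2% of counts on LFD, 9.81% to 16.4% on HFD and 17.8% to 52.0% on KD, and the 14 beta cell markers made up 5.77% to 9.54%, 11.7% to 13% and 1.74% to 12.9%. No marker of either list was at 0 in any library. In whole islets, fewer cells of a type and less RNA per cell cannot be told apart. Values are given as CPM, counts brought to a common library size, after TMM scaling, which aims to leave most genes at equal level between libraries. Genes were called at a Benjamini-Hochberg adjusted p below 0.05 in edgeR's two-sided quasi-likelihood test over all 18548 genes.

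None of the 8 genes was called in any comparison of diets. Between KD and LFD, 0 of 8 were called, where 4.12% of all genes tested were called. Between HFD and LFD and between KD and HFD the counts were also 0 of 8, with 0% of all genes called in both. By unadjusted p below 0.05 the members numbered 1 of 8 (Trpm5) for KD against LFD, where 22.7% of all genes did so and 11.9% were lower. The same count was 0 of 8 for HFD against LFD (9.99% of all genes) and 0 of 8 for KD against HFD (22.7%). In the joint test over the 3 diets 0 of 8 were called, against 2.17% of all genes, and 0 of 8 had an unadjusted p below 0.05, against 24.6%. The KD and LFD libraries overlapped for all 8 members, whereas they did not for 19.7% of all genes (9.69% higher on KD, 10.1% lower). DESeq2 called 1773 genes for KD against LFD (9.57%), 268 for HFD against LFD (1.45%) and 1518 for KD against HFD (9.92%), and limma-voom called 1867 (10.1%), 10 (0.0539%) and 0. With both tools 0 of the 8 members were called in these comparisons.

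The lengths of upstream DNA that follow belong to the members whose fitted difference between KD and LFD was farthest from 0, and are shown so that the letters can be read beside the levels. They are the 250 bases before the gene's outermost start, from RefSeq on GRCm38.p6, in which 6 of the 8 members had an entry, written 5′ to 3′ on the gene's strand. Capitals mark matches, on either strand, to CANNTG, the core of the E-box bound by basic helix-loop-helix factors, or to TAAT, the core bound by many homeodomain factors. Slc2a2 lies at chr3:28697653-28697902 on the + strand, G6pc2 at chr2:69210823-69211072 on the + strand and Trpm5 at chr7:143094643-143094892 on the - strand.
Slc2a2: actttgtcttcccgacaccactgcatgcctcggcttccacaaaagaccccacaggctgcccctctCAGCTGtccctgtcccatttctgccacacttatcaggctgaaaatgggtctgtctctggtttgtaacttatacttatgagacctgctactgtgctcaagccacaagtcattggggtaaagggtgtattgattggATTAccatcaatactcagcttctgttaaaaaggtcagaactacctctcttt
G6pc2: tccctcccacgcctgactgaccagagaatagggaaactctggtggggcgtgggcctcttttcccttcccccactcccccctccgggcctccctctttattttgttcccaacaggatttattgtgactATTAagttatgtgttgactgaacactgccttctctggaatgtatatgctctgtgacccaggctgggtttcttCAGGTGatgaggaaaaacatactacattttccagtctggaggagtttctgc
Trpm5: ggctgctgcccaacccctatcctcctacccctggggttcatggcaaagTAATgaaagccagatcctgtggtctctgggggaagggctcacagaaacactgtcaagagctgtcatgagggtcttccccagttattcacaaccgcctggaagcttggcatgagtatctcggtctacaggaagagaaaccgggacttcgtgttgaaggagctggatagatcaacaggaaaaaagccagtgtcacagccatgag
In the Slc2a2 window CANNTG began 185 and TAAT 51 bases before the start. In the G6pc2 window CANNTG began 51 and TAAT 123 bases before it. The Trpm5 window held 1 TAAT match, 202 bases before the start, and no CANNTG. Among 32851 RefSeq windows of the same length, 66.2% held CANNTG and 54.9% held TAAT, so most windows hold these short letters. The longer CAGATG of the Neurod1 type (14.4% of windows), the CTAATG of the Pdx1 type (6.36%), the Maf half-site TGCTGA (16.1%) and the Hnf1 half-site GTTAAT (6.43%) were not among the letters of these 3 windows on either strand. The patterns do not overlap each other in these windows.

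Slc2a2 (ENSMUSG00000027690) encodes GLUT2, the main glucose transporter of mouse beta cells. Its level was 295, 264 and 561 CPM in LFD replicates 1 to 3, 349 and 328 in HFD replicates 1 and 2, and 207, 331, 211 and 268 in KD replicates 1 to 4. LFD replicate 3 stood above all other libraries, and the remaining LFD libraries lay within the range of the KD libraries. The means were 373 ± 164 CPM on LFD (SD, n = 3), 339 ± 14.6 on HFD (n = 2) and 254 ± 58.2 on KD (n = 4). The KD to LFD difference was -0.55 on the log2 scale (SE 0.26, 95% interval -1.12 to 0.02, edgeR adjusted p = 0.234). Without LFD replicate 3 it was -0.13. The difference between HFD and LFD was -0.14 (interval -0.83 to 0.55, edgeR adjusted p = 0.894), and between KD and HFD it was -0.41 (interval -1.06 to 0.23, edgeR adjusted p = 0.421).

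G6pc2 (ENSMUSG00000005232) encodes the islet glucose-6-phosphatase catalytic subunit. It was the most abundant member and the one that varied most among KD libraries. Its level was 1166, 1417 and 1341 CPM in LFD replicates 1 to 3, 1670.3 and 1684 in the HFD libraries, and 511, 1127, 832 and 1848 in KD replicates 1 to 4. The highest KD library was 3.62 times the lowest, against 1.21 times on LFD and 1.01 times on HFD, so the KD libraries spanned both other diets. Both HFD libraries were above all 3 LFD libraries, and G6pc2 was the 1 member of 8 for which HFD and LFD did not overlap, a separation seen in 27.5% of all genes (13.4% higher on HFD). The fitted HFD to LFD difference was 0.36 (SE 0.42, interval -0.56 to 1.27, edgeR adjusted p = 0.779).

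The order of G6pc2 among the KD libraries went with marker levels. KD replicates 1, 3, 2 and 4 held 511, 832, 1127 and 1848 CPM of G6pc2, 1.74%, 2.96%, 5.16% and 12.9% of counts in beta cell markers, and 52.0%, 49.0%, 38.6% and 17.8% in acinar markers. The part of these markers in this order was not tested, and a fit with an acinar score is given below. The difference between KD and LFD was -0.28 (SE 0.35, interval -1.04 to 0.49, edgeR adjusted p = 0.676). That between KD and HFD was -0.64 (SE 0.39, interval -1.49 to 0.22, edgeR adjusted p = 0.352). Without KD replicate 4 the KD to HFD difference was -1.03 and was called (edgeR adjusted p = 0.0485), as were 9.84% of all genes in that fit. With an acinar score as a covariate it was 0.04 (edgeR adjusted p = 0.979). Acinar markers made up 9.81% to 16.4% of counts on HFD and 17.8% to 52.0% on KD, with no overlap. That fit can therefore do little to tell diet from acinar share between KD and HFD.

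Gpd2 (ENSMUSG00000026827) encodes the mitochondrial glycerol-3-phosphate dehydrogenase of the glycerol phosphate shuttle. It was measured at 61.0, 52.2 and 77.1 CPM in LFD replicates 1 to 3, 63.6 and 68.7 in the HFD libraries, and 51.5, 70.7, 55.7 and 79.5 in KD replicates 1 to 4. The 3 diets overlapped, and their means were 63.5 ± 12.6 (SD, n = 3), 66.1 ± 3.63 (n = 2) and 64.4 ± 13.1 (n = 4). The difference between KD and LFD was 0.02 (interval -0.37 to 0.41, edgeR adjusted p = 0.957).

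The KATP channel has a pore, Kir6.2, encoded by Kcnj11, and a regulatory subunit, SUR1, encoded by Abcc8 and bound by sulfonylurea drugs. Kcnj11 (ENSMUSG00000096146) was present at 42.3, 52.9 and 67.1 CPM in LFD replicates 1 to 3, 52.5 and 59.3 in the HFD libraries, and 49.8, 61.9, 47.0 and 76.4 in KD replicates 1 to 4. Abcc8 (ENSMUSG00000040136) was present at 421, 467 and 581 CPM on LFD, 458 and 558 on HFD, and 434, 534, 441 and 635 on KD, in the same order of replicates. For both genes the diets overlapped, and the highest library was KD replicate 4, followed by LFD replicate 3. The difference between KD and LFD was 0.12 for Kcnj11 (interval -0.31 to 0.55, edgeR adjusted p = 0.753). For Abcc8 it was 0.06 (interval -0.36 to 0.48, edgeR adjusted p = 0.881).

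Cacna1c and Cacna1d encode the pore-forming subunits of the L-type calcium channels Cav1.2 and Cav1.3. Cacna1c (ENSMUSG00000051331) was measured at 53.6, 41.4 and 74.6 CPM on LFD, 60.5 and 60.8 on HFD, and 45.3, 50.5, 39.1 and 54.4 on KD. All 4 KD libraries were below both HFD libraries, and Cacna1c was the 1 member of 8 whose KD and HFD libraries did not overlap, as was so for 33.9% of all genes (18.2% lower on KD). Its KD to HFD difference was -0.36 (SE 0.21, interval -0.81 to 0.10, edgeR adjusted p = 0.332). Cacna1d (ENSMUSG00000015968) was measured at 110.1, 90.4 and 148 CPM on LFD, 114 and 135 on HFD, and 112, 116, 103 and 117 on KD. The KD libraries fell inside the range of the LFD libraries, and the difference between those diets was -0.05 (interval -0.40 to 0.31, edgeR adjusted p = 0.890).

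Trpm5 (ENSMUSG00000009246) encodes a calcium-activated cation channel of the TRP family. Its level was 51.1, 47.2 and 78.1 CPM on LFD, 49.6 and 64.8 on HFD, and 36.5, 51.1, 37.2 and 42.8 on KD. KD replicates 1, 3 and 4 were below every LFD and HFD library, and KD replicate 2 was level with LFD replicate 1. The means were 58.8 ± 16.8 (SD, n = 3), 57.2 ± 10.8 (n = 2) and 41.9 ± 6.75 CPM (n = 4). The KD to LFD difference was -0.49 (SE 0.19, interval -0.91 to -0.06), the only one of the 24 member differences whose interval did not hold 0, and it was not called (edgeR adjusted p = 0.168, unadjusted 0.0283). Against HFD the KD difference was -0.45 (interval -0.92 to 0.03, edgeR adjusted p = 0.244). Without LFD replicate 3 the KD to LFD difference was -0.23.

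**Figure D1:**
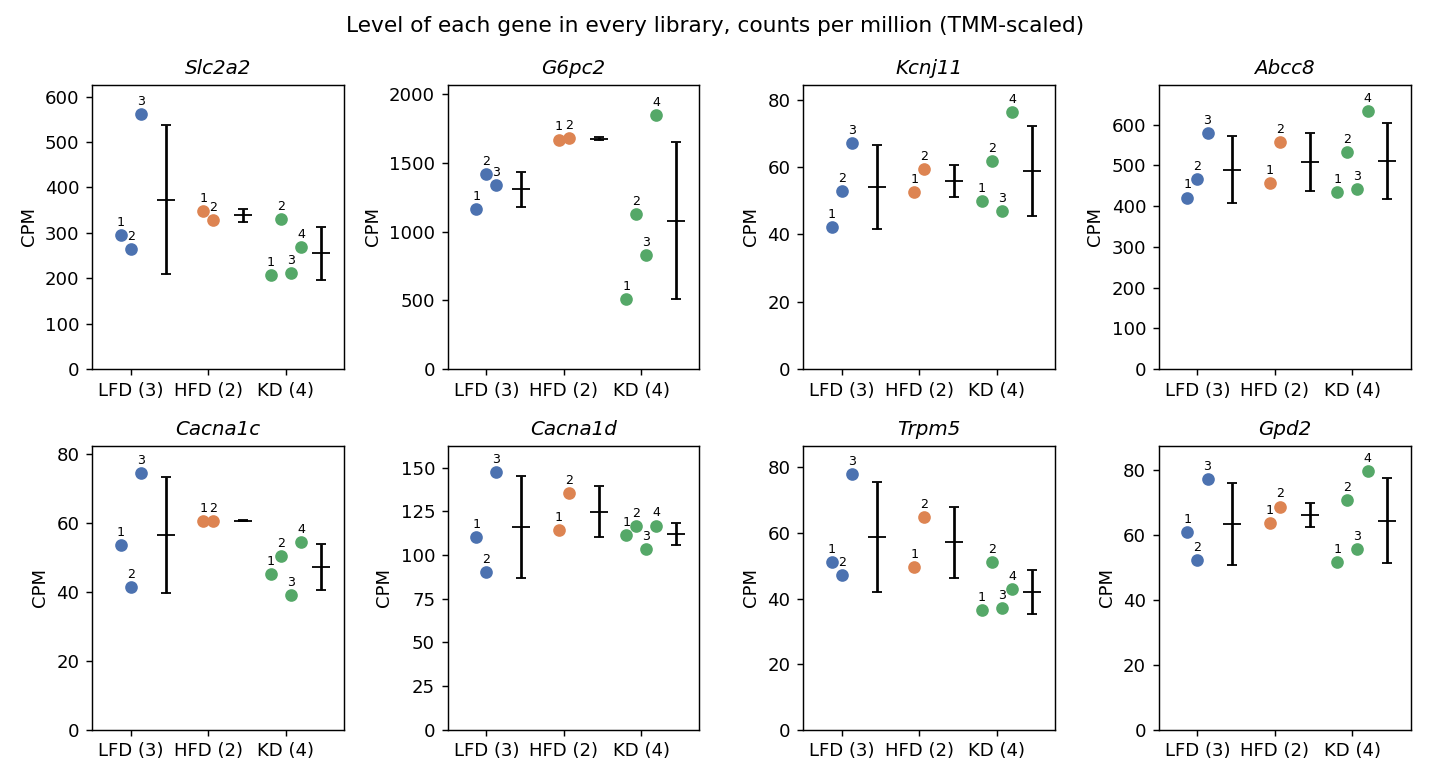
Level of each of the 8 genes in CPM (vertical axes, from 0) in every library, with replicate numbers beside the points and the mean ± SD beside each diet. LFD replicate 3 (561 CPM) stands apart for Slc2a2, and the KD libraries of G6pc2 run from 511 to 1848 CPM.

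**Figure D2:**
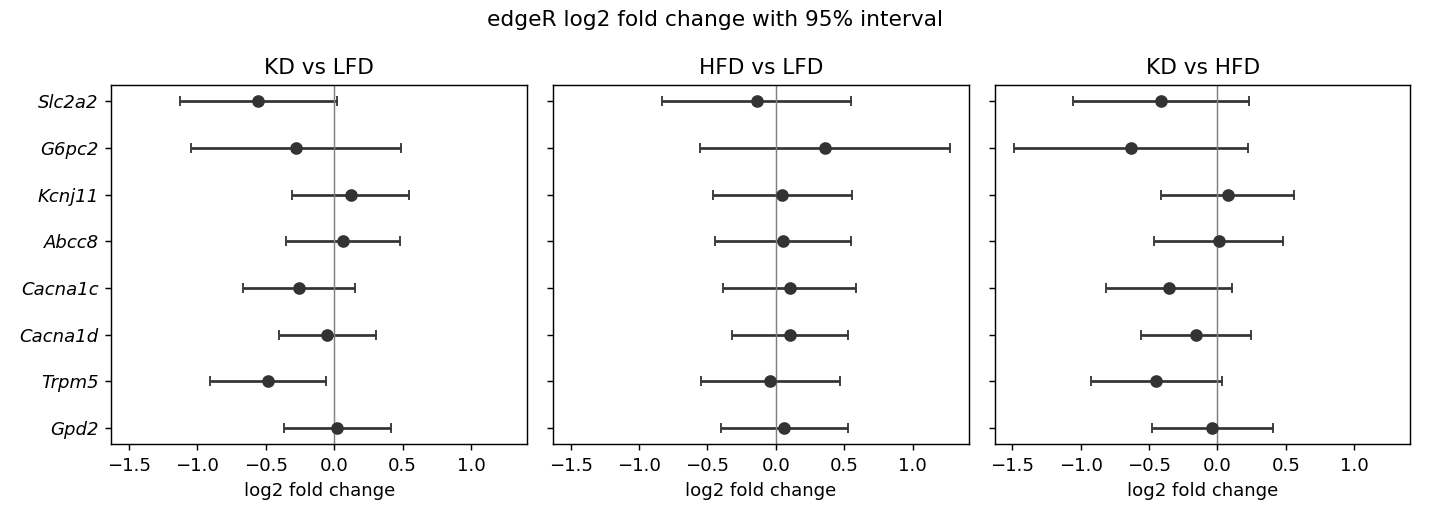
Fitted log2 fold change of each gene (points) with its 95% interval (bars) for KD against LFD, HFD against LFD and KD against HFD. The bar of Trpm5 in KD against LFD, -0.91 to -0.06, is the only one that does not cross 0.

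Across the members, 3 differences between KD and LFD were above 0 and 5 below, with a median of -0.15 where the median of all genes tested was -0.02. For HFD against LFD 6 were above 0 and 2 below (median 0.06, all genes -0.0017), and for KD against HFD 2 were above and 6 below (median -0.26, all genes -0.04). Single members ran from -0.14 (Slc2a2) to 0.36 (G6pc2) for HFD against LFD and from -0.64 (G6pc2) to 0.07 (Kcnj11) for KD against HFD. The comparisons share control libraries, so their values are not independent of each other. Half-widths of the 95% intervals ran from 0.36 to 0.77 for KD against LFD, from 0.42 to 0.91 for HFD against LFD and from 0.40 to 0.85 for KD against HFD. Differences within those widths could not be told from 0 with this number of libraries.

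The scaling shifted all genes, and the members with them. With each library divided by its plain total, the median of all genes moved by -0.57 for KD against LFD, by 0.21 for HFD against LFD and by -0.77 for KD against HFD. Scaling on the 14 beta cell markers moved it by -0.45 for HFD against LFD and by 0.41 for KD against HFD. The median of the 8 members was then -0.64, 0.27 and -1.02 under plain totals, and -0.15, -0.37 and 0.17 under beta marker scaling, in the same order of comparisons. Trpm5 stayed below 0 for KD against LFD and for KD against HFD under every setting tried, from -1.04 to -0.23 in the former and from -1.22 to -0.03 in the latter. The -0.03 came with the acinar covariate (edgeR adjusted p = 0.978), in a comparison where the acinar marker share did not overlap between the diets. Slc2a2, G6pc2 and Cacna1c also stayed below 0 for KD against LFD under every setting tried, Cacna1c with -0.0032 without LFD replicate 3.

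**Figure D3:**
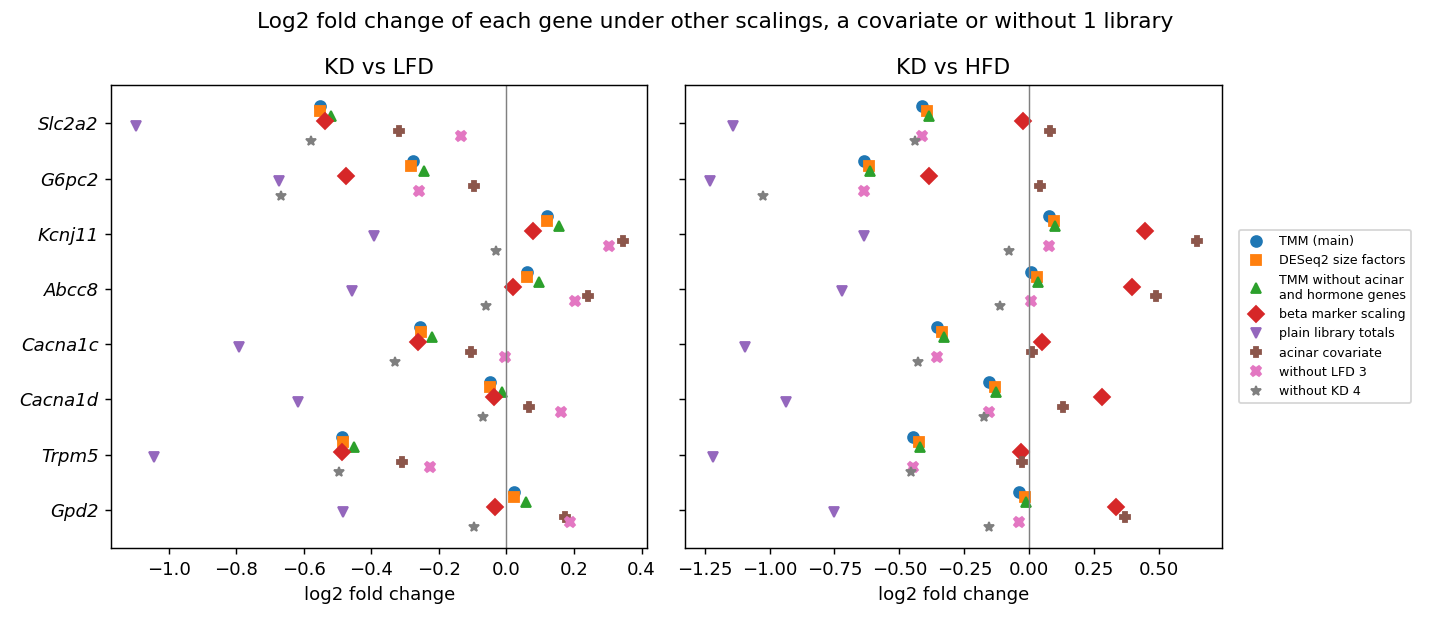
Log2 fold change of each gene for KD against LFD and KD against HFD (horizontal axes) under 5 scalings, with an acinar covariate, and without LFD replicate 3 or KD replicate 4. Slc2a2, G6pc2, Cacna1c and Trpm5 lie left of 0 in every setting drawn for KD against LFD, Cacna1c at -0.0032 without LFD replicate 3, and the plain library totals place all 8 genes left of 0.

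The members were also set against the beta cell markers of the same library. The same marker mean was subtracted from every member, so all 8 differences in mean log2 CPM shifted equally. These are differences between means of log2 CPM, so they are not compared in size with the differences fitted by edgeR. As the log2 CPM of a gene minus the mean log2 CPM of the 14 markers, Trpm5 differed by -0.52 (exact permutation test, raw p = 0.114), Slc2a2 by -0.55 (p = 0.171) and G6pc2 by -0.48 (p = 0.114). Adjusted over the 8 members, all 3 had p = 0.456 in this exact two-sided test, whose smallest possible raw p over 35 splits is 0.0286. Had all 3 stood at that smallest raw p, adjustment over the 8 members would still have kept them above the calling threshold. The adjusted p therefore cannot decide whether these members differed, and no conclusion is drawn from it. The other 5 members differed by -0.28 (Cacna1c), -0.08 (Cacna1d), -0.04 (Gpd2), 0.0020 (Abcc8) and 0.06 (Kcnj11), with exact permutation p between 0.371 and 0.971. Relative to the markers, G6pc2 was 1.88, 2.0 and 1.5 on LFD and 0.96, 1.45, 1.20 and 1.64 in KD replicates 1 to 4, so KD replicate 4 was the 1 KD library inside the LFD range.

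Levels of different genes were compared per kilobase of the longest annotated transcript. On this scale the LFD means were 691 for G6pc2, 100.4 for Abcc8, 67.0 for Slc2a2, 17.2 for Kcnj11, 14.3 for Trpm5, 12 for Cacna1d, 11 for Gpd2 and 4.30 for Cacna1c, in CPM per kilobase. G6pc2, Abcc8, Slc2a2 and Kcnj11 followed each other in this order in all 9 libraries, and Cacna1c was last in all 9. Trpm5 was above Cacna1d in 6 of 9 libraries and Cacna1d above Gpd2 in 7 of 9, so the order of these neighbours was not settled. With the summed length of all exons Slc2a2 passed Abcc8 in 2 libraries. On that length Trpm5 was above Cacna1d in only 2 of 9 libraries, and Cacna1d above Gpd2 in only 2 of 9.

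Pairs with a shared function were then set against each other within each library, as log2 ratios of CPM. The ratio of SUR1 to Kir6.2 transcripts, Abcc8 over Kcnj11, was 3.31, 3.14 and 3.11 on LFD, 3.12 and 3.23 on HFD, and 3.12, 3.11, 3.23 and 3.05 on KD. The 9 values lay close together and the diets overlapped (KD minus LFD -0.06, exact permutation p = 0.4). The ratio of Cav1.3 to Cav1.2 transcripts, Cacna1d over Cacna1c, was 1.04, 1.12 and 0.98 on LFD, 0.92 and 1.15 on HFD, and 1.30, 1.20, 1.4 and 1.10 on KD. Of the KD libraries, 3 were above all LFD and HFD libraries. The means were 1.05 ± 0.07 (SD, n = 3) on LFD and 1.25 ± 0.13 (n = 4) on KD, a difference of 0.20 or 1.15-fold (exact permutation test, p = 0.0857, adjusted over 3 ratios 0.257). A lone ratio at the smallest raw p of this test, 0.0286, would also stay above the calling threshold after adjustment over 3 ratios. That adjusted p therefore cannot decide whether this ratio alone differed.

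**Figure D4:**
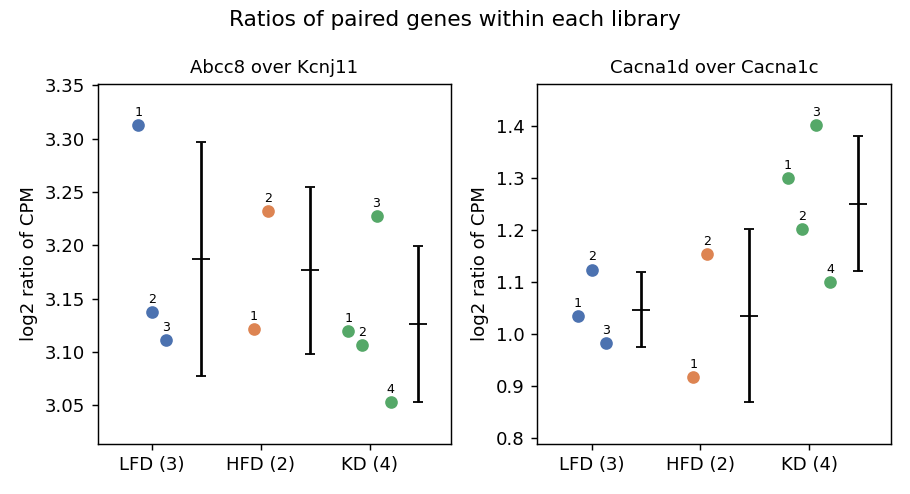
Log2 ratios of CPM within each library (vertical axes, which do not start at 0) for Abcc8 over Kcnj11 and Cacna1d over Cacna1c, with replicate numbers and the mean ± SD beside each diet. KD replicates 1, 2 and 3 are the highest of the 9 for Cacna1d over Cacna1c, at 1.20 to 1.4.

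The other genes of glucose sensing and excitability were taken from a list of 112 genes in 8 roles, of which 111 were found and 98 besides the members were tested. Between KD and LFD 2 of the 98 were called higher, where 0.981% of all genes were, and 3 lower, where 3.14% were. The median difference of the 98 was -0.02, the same as for all genes. For HFD against LFD and KD against HFD 0 of the 98 were called by edgeR, with 0% of all genes called. By unadjusted p below 0.05 there were 16 higher and 5 lower for KD against LFD (10.8% and 11.9% of all genes), 2 higher and 9 lower for HFD against LFD (3.55% and 6.44% of all genes), and 20 higher and 9 lower for KD against HFD (12.1% and 10.6%). DESeq2 called 2 of the 98 for HFD against LFD and 11 for KD against HFD, with 1.45% and 9.92% of all genes called.

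The 2 genes called higher on KD both belong to the shuttles that carry reducing equivalents into mitochondria. Gpd1, the cytosolic partner of GPD2 in the glycerol phosphate shuttle, was 15.9, 15.2 and 14.0 CPM on LFD, 12.4 and 14.2 on HFD, and 23.2, 21.4, 24.0 and 21.3 on KD. All KD libraries were above all others (above all LFD libraries for 9.69% of all genes), with a KD to LFD difference of 0.58 (SE 0.13, edgeR adjusted p = 0.0358). Slc25a11, the oxoglutarate carrier of the malate-aspartate shuttle, was 26.5, 26.3 and 24.0 CPM on LFD, 24.5 and 28.2 on HFD, and 35.1, 33.7, 35.9 and 36.8 on KD. It was again higher in all KD libraries, with a KD to LFD difference of 0.47 (SE 0.12, edgeR adjusted p = 0.0465). With an acinar score as a covariate the differences were 0.54 and 0.48, and both were called (edgeR adjusted p = 0.0376 for each). Under plain library totals, which moved the median of all genes by -0.57, these differences were -0.011 and -0.10. Of the 16 shuttle and coupling genes tested, Gpd2 included, 13 were above 0 between KD and LFD, with a median of 0.39, and 9 were higher by unadjusted p below 0.05, where 10.8% of all genes were. This was the highest median of the 8 roles. Calcium stores and pumps had 9 of 13 genes above 0 (median 0.26), and the remaining roles had medians from -0.23 to -0.07. TRP and other channels had 12 of 17 genes below 0. No role was tested as a set.

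The 3 genes called lower on KD were channels of other kinds. Cacna1e, the R-type calcium channel Cav2.3, was 9.56, 8.60 and 4.13 CPM on LFD, 0.90 and 0.88 on HFD, and 1.87, 1.65, 2.85 and 1.12 on KD, a difference of -2.02 between KD and LFD (SE 0.36, edgeR adjusted p = 0.0159). The HFD libraries were the lowest of all 9 (below all LFD libraries for 14.1% of all genes, below all KD libraries for 15.7%). The HFD to LFD difference of -3.05 was not called (edgeR adjusted p = 0.134), but it was with DESeq2 (adjusted p = 1.8e-06). In edgeR it was also called without a low-count filter (adjusted p = 0.000638), with the replicate block (0.00685) and without LFD replicate 3 (0.00878). It was called in no other alternative. Among these were limma-voom (adjusted p = 0.0901), edgeR with the acinar covariate (0.167) and edgeR without LFD replicate 2 (0.435). Gja1, the gap junction protein connexin 43, was 38.5, 28.1 and 20.6 CPM on LFD, 23.8 and 23.3 on HFD, and 17.4, 14.7, 11.8 and 10.8 on KD (difference -1.09, SE 0.22, edgeR adjusted p = 0.0243). Kcnn4, a calcium-activated potassium channel, was 9.14, 11.2 and 5.16 CPM on LFD, 3.5 and 3.23 on HFD, and 3.81, 3.25, 3.83 and 3.58 on KD (difference -1.23, SE 0.26, edgeR adjusted p = 0.0279). For each of the 3 the KD libraries lay below all LFD libraries, as they did for 10.1% of all genes.

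Markers of other cell types differed between the diets beside these channels. The summed level of the 7 duct markers was 421 to 469 CPM on LFD, 296 to 299 on HFD and 247 to 297 on KD. Between KD and LFD 6 of 7 duct markers were below 0 (median -0.72, 3 called lower). The summed level of the 8 lymphocyte markers was 61.6 to 1207 CPM on LFD, 55.6 to 72.6 on HFD and 6.06 to 25.5 on KD. Between KD and LFD 8 of 8 lymphocyte markers were below 0 (median -5.30, 7 called lower). Fibroblast and stellate markers summed to 257 to 509 CPM on LFD, 284 to 298 on HFD and 121 to 307 on KD, and 7 of 7 were below 0 between KD and LFD (median -0.72, 0 called). Smooth muscle markers summed to 47.0 to 239.6 CPM, 44.0 to 54.7 and 35.8 to 133, and 5 of 5 were below 0 (median -0.86, 0 called). Macrophage markers summed to 61.9 to 113 CPM, 77.3 to 105 and 32.1 to 61.9, and 6 of 6 were below 0 (median -0.56, 1 called lower). Not all lists were lower on KD. Alpha markers had 4 of 6 above 0 (median 0.25), endothelial markers 4 of 6 (0.10), acinar markers 13 of 14 (1.58) and beta cell markers 7 of 14 (0.10). Delta and PP markers had 2 above and 3 below 0 (median -0.01, 1 called lower), and neuron and Schwann markers 2 and 3 (-0.04, 0 called). The part of these cell types in the 3 differences was not tested. The calls also depended on single libraries, since without LFD replicate 1, LFD replicate 2 or KD replicate 2 none of the 98 was called (0.97%, 1.24% and 1.08% of all genes), and without KD replicate 1 and KD replicate 3 the count was 2 and 1 (2.06% and 0.822%).

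**Figure D5:**
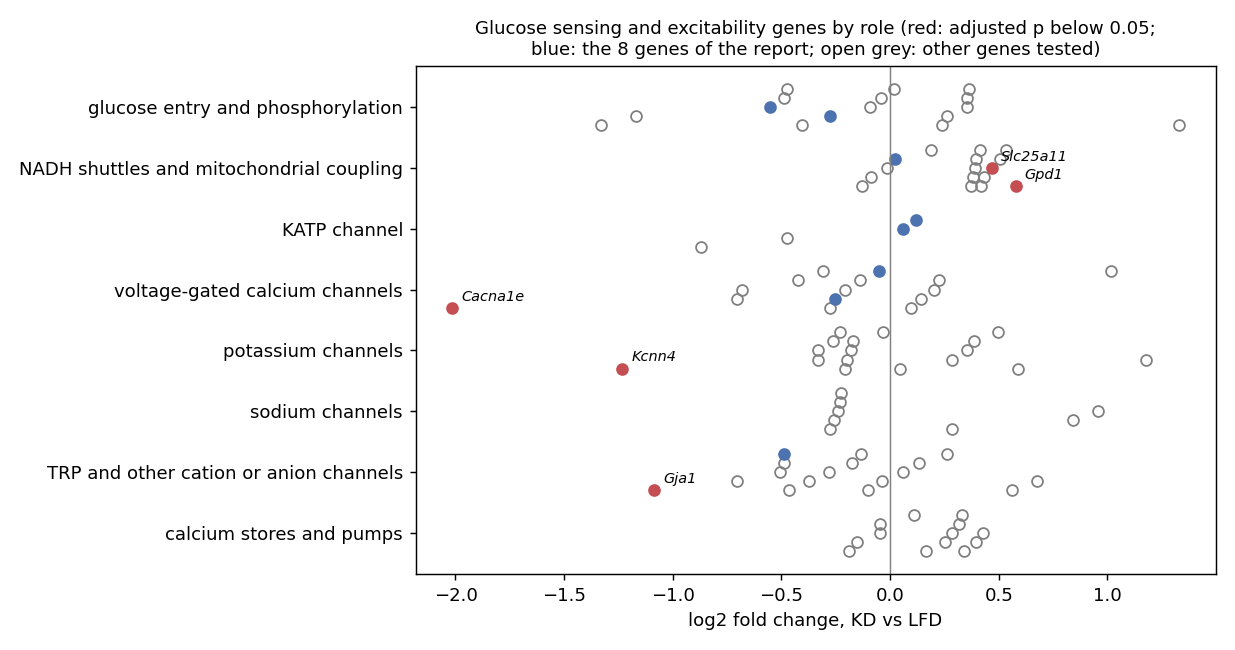
Log2 fold change between KD and LFD (horizontal axis) of every tested gene of the list, in rows by role, with the 8 members in blue, called genes in red and other genes as open circles. Most shuttle and coupling genes lie right of 0, and Cacna1e, at -2.02, lies farthest left.

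Among calcium channel genes, the subunits Cacnb2, Cacnb3 and Cacna2d1 differed by -0.28, 0.22 and -0.21 between KD and LFD, and the P/Q-type pore Cacna1a and T-type pore Cacna1h by -0.31 and -0.42, and none was called (edgeR adjusted p from 0.28 to 0.643). Cacna1a lay between Cacna1d and Cacna1c in level per kilobase in all 9 libraries. Among potassium channels the two-pore channel Kcnk16 differed by 0.28 and the large-conductance channel Kcnma1 by -0.17 (edgeR adjusted p = 0.607 and 0.708). Trpm4, the closest relative of Trpm5, differed by 0.26 and Trpm2 by -0.37 (edgeR adjusted p = 0.523 and 0.504), and Trpm5 exceeded Trpm4 per kilobase in all 9 libraries. The calcium pumps of the endoplasmic reticulum Atp2a2 and Atp2a3 differed by 0.17 and 0.26, and the release channel Ryr2 by 0.32 (edgeR adjusted p = 0.657, 0.585 and 0.761). Of the remaining genes, the glucose transporter Slc2a1 differed by -0.47 and the aspartate-glutamate carrier Slc25a12 by 0.37 (edgeR adjusted p = 0.258 and 0.221).

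The members did not follow one another equally across the 9 libraries. Pearson's r of log2 CPM was highest for Kcnj11 and Abcc8 (0.97), then for Slc2a2 and Trpm5 (0.93), and lowest for G6pc2 and Cacna1d (0.24). These correlations describe 9 libraries that share scaling and cell mixture. Among 10394 genes, those whose pattern was most like each member by Pearson's r were Abca1, Tet2 and Nr2c2 for Slc2a2 (r 0.96 to 0.97) and Spc25 and Slc38a4 for G6pc2 (0.98). They were Golgb1, Rtl5 and Brox for Gpd2 (0.95 to 0.97), Abcc8, Prpf6 and Nbdy for Kcnj11 (0.96 to 0.97), and Vil1, Rcan3 and Kcnj11 for Abcc8 (0.97). For the remaining members they were Strada, Zfp92 and Sept10 for Cacna1c (0.96), Kcnj6, Slc7a2 and Pip4p2 for Cacna1d (0.93), and Pid1, Ncoa7 and Atg12 for Trpm5 (0.98 to 0.99).

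A pair of these likenesses joins neighbours on the chromosome. Kcnj11 and Abcc8 lie next to each other on the same strand, 3758 bases apart in GENCODE M21 on GRCm38, and Spc25 lies next to G6pc2 on the opposite strand, 4878 bases away. Spc25, which encodes a kinetochore protein, was 68.4, 82.1 and 78.8 CPM on LFD, 124 and 98.9 on HFD, and 23, 79.3, 51.8 and 128 in KD replicates 1 to 4. As for G6pc2, KD replicate 1 was lowest and KD replicate 4 highest. Annotated genes on the opposite strand overlap 6 of the 8 members. They include Dcp1b for Cacna1c, Chdh and Dcp1a for Cacna1d and Tssc4 for Trpm5, and for Slc2a2, Abcc8 and Gpd2 they are unnamed gene models. The strand setting of the counting is not given, and reads of such overlaps could belong to either gene.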

How the data were processed

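Islet RNA was extracted with Trizol and chloroform, poly(A) RNA was selected, and directional libraries were made with a NEBNext Ultra II kit, per the labels' protocols. The authors deposited raw counts per Ensembl gene, 1 column per library. Per the submitters' processing notes, cutadapt 1.16, STAR 2.7.9a, featureCounts 1.6.3 and DESeq2 1.40.2 were used with GRCm39 (mm39). Their roles, the annotation release, the strand setting and the handling of multi-mapping reads are not given in the sources used here.

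The deposited counts were fitted in R 4.3.3 with edgeR 4.0.16. After filterByExpr and TMM scaling, the model was built with a mean per diet over all 9 libraries (robust quasi-likelihood, two-sided), with adjustment over 18548 genes. Standard errors are the size of the log2 change over the square root of F. Log2 CPM used a prior count of 2. Ratios within libraries were compared by exact permutation over 35 splits. Levels per kilobase used GENCODE M21 lengths, and upstream sequences came from RefSeq on GRCm38.p6, a different build from the counting. Gene symbols were matched for 51948 rows. The short motifs were chosen after longer ones had no match.

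The genes named were the 8 members in every comparison. From the wider list they were the called genes (up to 12 per comparison) and Slc2a1, Cacna1a, Cacna1e, Cacna1h, Cacnb2, Cacnb3, Cacna2d1, Kcnk16, Kcnma1, Trpm2, Trpm4, Gpd1, Slc25a12, Atp2a2, Atp2a3 and Ryr2, whatever their change. For likeness they were the 3 genes of highest r per member at a mean of at least 5 CPM, leaving out unnamed models and pseudogenes. Some genes and 1 ratio that the rule covers are not reported here. Members and lists were chosen with earlier results of these data known.

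Alternatives were DESeq2 size factors, TMM without acinar and hormone genes, beta marker scaling, plain library totals (added after seeing the data), the Wald test of DESeq2 1.42.0, voom of limma 3.58.1 with sample weights, no filter, at least 5 CPM in at least 3 libraries, only the groups compared, an acinar covariate, a replicate block and leaving out each library. On simulated data edgeR recovered 40.2% of 2-fold and 77.1% of 4-fold changes for KD against LFD (18074 genes). For HFD against LFD (18024 genes) the shares were 20.4% and 64.3%, and for KD against HFD (17984 genes) 28.3% and 69.1%. The changed genes were drawn at random from all genes tested, whatever their level. All simulated libraries shared 1 profile, with no difference in acinar share, so these shares are not the rates for the members.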

Additional observations from a re-analysis of the deposited data

How the results depend on the processing

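Over the 24 member differences and 480 alternatives, 2 alternatives passed the threshold and 70 changed a sign, none of them past the threshold. Same-numbered libraries did not deviate together in every pair (r of deviations -0.02 to 0.22), so the numbers are not taken as a pairing. With the replicate block, members called numbered 1 for KD against HFD (G6pc2, -1.12, edgeR adjusted p = 0.0262) and 1 in the joint test, where 12.5% and 15.2% of all genes were called. Leaving out each library gave 0 to 1 for KD against HFD, the 1 without KD replicate 4 (9.84% of all genes called). No other library has the number 4, so the block fits KD replicate 4 by itself. The 2 alternatives past the threshold, both for G6pc2, thus share the loss of that library from the comparison. The adjusted p of G6pc2 for KD against HFD ran from 0.0262 to 0.979 over its alternatives. Beta marker scaling and the acinar covariate each changed the sign of 6 of 8 members for HFD against LFD.

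Of the wider list, 5 genes were called between KD and LFD, with the share of all genes called in brackets (4.12%). The count was 0 under beta marker scaling (1.51%), 9 with DESeq2 (9.57%), 14 with limma-voom (10.1%), 3 without a low-count filter (3.42%), 3 at 5 CPM in 3 libraries (3.31%), 12 with the acinar covariate (7.54%), 10 with the replicate block (10.8%) and 0 to 7 without 1 library (0.822% to 7.4%). For HFD against LFD (0 called) it was 2 with DESeq2 (1.45%), 1 without a filter (0.261%), 5 with the block (2.13%) and 0 to 2 without 1 library, the 2 without LFD replicate 3 (1.06%). For KD against HFD (0 called) it was 11 with DESeq2 (9.92%), 2 without a filter (1.02%), 17 with the block (12.5%), 7 under plain totals (8.36%) and 0 to 14 without 1 library, the 14 without KD replicate 4 (9.84%). Under plain totals the difference of Gpd1 between KD and LFD was -0.011 and that of Slc25a11 -0.10, beside a median shift of -0.57 over all genes. The cause of the other changes was not tested. Between KD and LFD, 23.8% of 764 called genes were higher, and 0.605% of 1653 under plain totals, 1.43% of 280 under beta marker scaling and 33.6% of 863 with TMM without acinar and hormone genes. With 2 HFD libraries, the widest intervals were those of HFD against LFD.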

Other observations

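Some genes of the wider list that were not called had large spreads between libraries. They were picked after their values were seen and are given as values only. Hk2, a low-Km hexokinase that beta cells normally hold low, was 11.1, 7.17 and 3.24 CPM on LFD, 3.85 and 1.68 on HFD, and 27.3, 11.3, 27.3 and 6.54 in KD replicates 1 to 4. Its highest values were in KD replicates 1 and 3, the libraries with the most acinar marker counts (52.0% and 49.0%), whose part in the result was not tested. Kcnq1, a voltage-gated potassium channel, was 40.3, 32.2 and 26.9 CPM on LFD, 18.1 and 13.3 on HFD, and 50.2, 28.8, 42.0 and 16.4 on KD. Itpr3, a calcium release channel of the endoplasmic reticulum, was 74.8, 80.7 and 77.5 CPM on LFD, 52.3 and 45.2 on HFD, and 99.0, 88.3, 84.9 and 63.4 on KD, so both HFD libraries were the lowest of the 9. Trpc4, a cation channel of the TRP family, was 5.82, 6.41 and 9.80 CPM on LFD, 18.3 and 13.3 on HFD, and 4.2, 7.66, 5.88 and 10.7 on KD, so both HFD libraries were the highest of the 9. The HFD libraries lay below all LFD libraries for 14.1% of all genes and above them for 13.4%. They lay below all KD libraries for 15.7% of all genes and above them for 18.2%.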
